A study of Mus musculus with 4 samples.

Results

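The genes of the collagen chains were followed in hyperplastic mammary glands of MMTV-PyMT mice with and without a miR-9 knockout. The members are all genes listed as protein-coding whose symbol has the form Col, a number, a and a number, and there were 43 of them among 25806 listed genes. Every mouse carried the MMTV-PyMT transgene, a polyomavirus middle T oncogene read from a mammary tumour virus promoter that is active in mammary epithelium, so the controls are transgenic glands too and no normal gland was compared. There were 2 libraries from control glands without the knockout and 2 from glands of miR-9-exon 1 knockout mice. The mice were females of mixed C57BL/6 background, and littermates served as controls. The labels name heterozygous knockout mice as those obtained, and do not say whether the knockout glands were homozygous, which miR-9 gene was lost, what age the mice were, or whether each library was a separate animal, so p-values measure the spread between these libraries, which may be technical.

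Collagens are extracellular proteins in which chains wind around each other in a triple helix. Fibrillar collagens (types I, II, III, V, XI, XXIV and XXVII) form the banded fibres of connective tissue, and in the mammary gland they are made mainly by stromal fibroblasts. Type IV forms the sheet-like network of basement membranes, on which epithelium and vessels rest and which invasive carcinoma cells have to cross. FACIT collagens sit on the surface of fibrils, type VI forms beaded filaments around cells, and the transmembrane collagens span the plasma membrane of the cells that make them.

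The values are called normalised read counts here, because in each library they are whole multiples of 1 step, as read counts divided by 1 factor would be. How they were made is not given. They summed to between 15904800 and 16418700 per library, with 22427 to 23319 genes above 0. Knockout was compared with control as a difference on the log2(value + 1) scale, with its standard error (SE), from a limma fit across 22455 genes with Benjamini-Hochberg (BH) adjustment, and a gene is said to have risen or fallen only at an adjusted p under 0.05. With 2 libraries a group, the smallest two-sided p of an exact permutation test is 0.33, so a call comes from that fit alone. The tissue label was matched by abundant luminal markers, with Krt8 between 18175 and 22596 and Epcam between 13576 and 17731. The list of 12 luminal markers had a median log2 difference of -0.19. Of them 2 rose (0.414% of all tested genes) and 0 fell (0.169%). Both knockouts lay above both controls for 3 of the 12 (25.5% of all tested genes) and below both for 8 (25.6%). In a whole gland, fewer cells of a type and less RNA per cell cannot be told apart.

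All 43 collagens passed the filter on low values. Of these 1 rose, Col4a3, and 1 fell, Col11a1, against backgrounds of 0.414% of all tested genes higher and 0.169% lower. Both knockout libraries lay above both controls for 22 collagens (51.2%), where 25.5% of all tested genes did so, and below both for 11 (25.6%), where 25.6% of all genes did so. The other 10 overlapped. These shares of all tested genes are the background for every later count of separated genes in the 4 libraries. Without control 2 the counts were 23 above and 12 below, against 35.8% and 37.3% of all genes. At an unadjusted p under 0.05, limma gave 15 collagens higher and 4 lower, against 10.3% and 7.66% of all genes. The median difference over the 43 collagens was 0.61 on the log2 scale, and that over all genes was 0.00. The collagens' median was 1.00 without control 1 and 0.35 without control 2. A fit that leaves out 1 library has 1 library in that group, so its spread comes from the other group alone. Calls in such fits therefore do not measure the spread within both groups. Without either knockout, no gene of any kind was past the threshold.

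The controls were far apart in collagen. Collagen messages made up 0.420% and 0.294% of the summed values in controls 1 and 2, and 0.526% and 0.441% in knockouts 1 and 2. Of the 37 collagens with a mean of at least 20, 24 had their lowest value in control 2 (64.9%, against 33.4% of all genes at that level). The controls differed by more than 2-fold in 13 of the 37, against 7.41% of all such genes, and the knockouts in 0. Fibroblast markers were also lowest in control 2 and highest in knockout 1, though control 1 lay above knockout 2: the sum of 18 markers was 27170 and 14531 in controls 1 and 2 and 31192 and 22670 in knockouts 1 and 2, with 17 of 18 lowest in control 2, 6 separated upwards and 12 overlapping. The sum of 14 endothelial markers was 3408, 1817, 4415 and 3463 in the same order, and all 14 were lowest in control 2. None of the markers of either list was at 0 in any library, and the part of the stromal markers in the collagen differences was not tested.

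**Figure D1:**
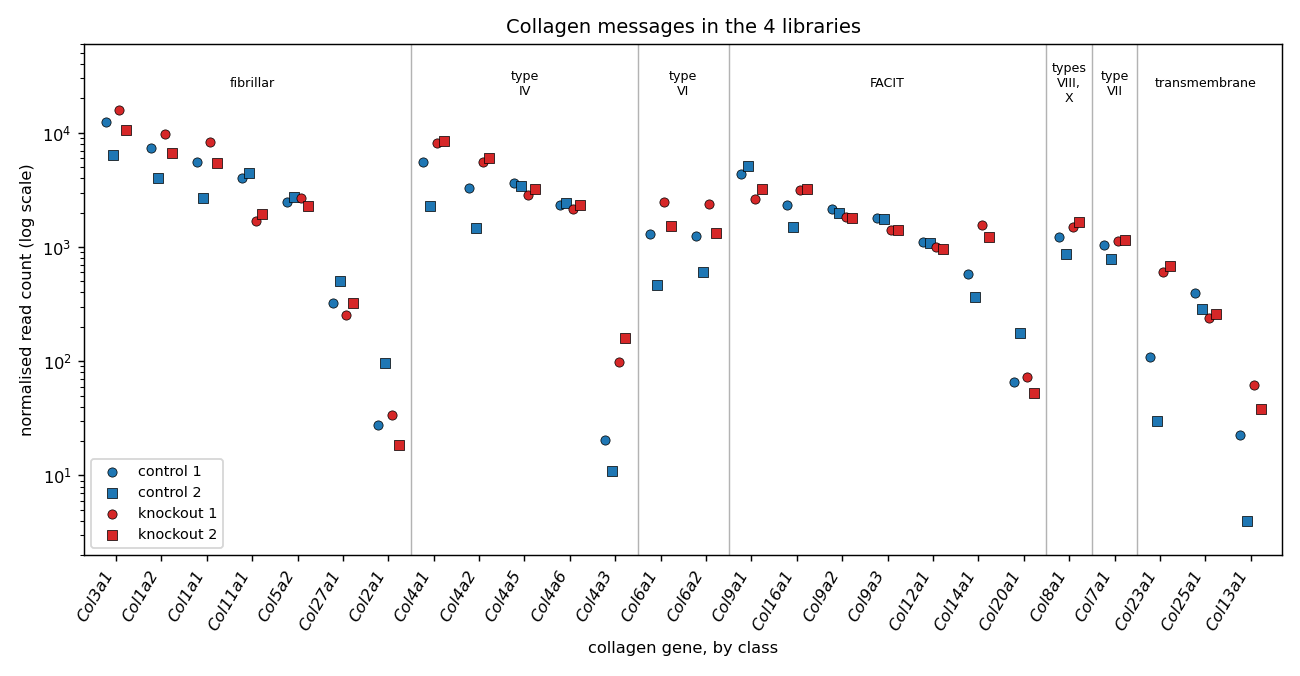
Normalised read counts (log scale) of the collagens named by abundance or size of difference, by class, in controls 1 and 2 (blue circle and square) and knockouts 1 and 2 (red circle and square). Each point is 1 library and there are no error bars. Col11a1 and Col9a1 have both knockouts below both controls, Col4a3 and Col23a1 have both far above, and control 2 is the lowest point of most stromal collagens.

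Types I and III, the main fibres of connective tissue, held the 2 most abundant collagen messages per kilobase. Divided by the gene length in kilobases, Col3a1 ranked 1 of the 43 by its mean over the libraries (1154 per kilobase) and Col1a1 ranked 2 (836). Col1a2 ranked 7 (562). Col1a1 had normalised read counts of 5534 and 2709 in controls 1 and 2 and 8283 and 5422 in knockouts 1 and 2. Col1a2, the partner chain of Col1a1 in type I, had 7380, 4061, 9798 and 6688 in the same order. Col3a1, which lies in the same fibrils in soft tissue, had 12456, 6416, 15921 and 10508. In all 3 genes control 1 was above knockout 2, so the groups overlapped, and control 2 was lowest. None was called, with log2 differences of 0.79 (SE 0.46), 0.56 (SE 0.38) and 0.53 (SE 0.43) and limma BH-adjusted p of 0.455, 0.502 and 0.582.

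Within a library, the chains of the main fibrils kept steadier proportions than their levels. The pairs of genes set against each other here were chosen after their values were seen, and no test was made of them. On the log2 scale Col1a1 to Col1a2 was at -0.42 and -0.58 in the controls against -0.24 and -0.30 in the knockouts. Col3a1 exceeded Col1a1 by 1.17 and 1.24 on the log2 scale in the controls but by 0.94 and 0.95 in the knockouts. Both ratios separated the groups, with differences of 0.23 and -0.26, and in both Col1a1 had the larger part in the knockouts. The ratio of Col1a1 to Pdgfra, a receptor marking fibroblasts, was 3.61 and 3.58 in the controls against 3.68 and 3.52 in the knockouts. The groups overlapped in that ratio, and the 4 libraries lay within 0.16 of each other, although Col1a1 itself varied by more than 3-fold.

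Types V and XI are minor chains that are built into the core of thicker fibrils and limit their width. Col5a1, described after its values were seen, had 750.0 and 377 in the controls against 1259 and 914 in the knockouts, and Col5a3 had 193, 92.7, 384 and 212. Both were separated upwards, and neither was called, with log2 differences of 1.01 and 1.09 and limma BH-adjusted p of 0.282 and 0.252. Col5a2, the partner chain of Col5a1, had 2498, 2766, 2699 and 2307, and the groups overlapped (log2 difference -0.07, SE 0.12). Control 2 was the highest library for Col5a2 and the lowest for Col5a1 and Col5a3. The log2 ratio of Col5a2 to Col1a1 was accordingly -1.15 and 0.03 in the controls against -1.62 and -1.23 in the knockouts.

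Col11a1 (chr3:114030540-114220718 on GRCm38, plus strand), a chain of type XI that joins type II in cartilage fibrils and type V elsewhere, fell. It had normalised read counts of 4022 and 4484 in the controls against 1679 and 1950 in the knockouts, and the groups lay far apart. The log2 difference was -1.23 (SE 0.12, limma BH-adjusted p = 0.009). Col11a1 was the 1 collagen past the threshold in that direction, and both controls were within 0.16 of each other on the log2 scale. Without knockout 1 the difference was -1.12 and without knockout 2 it was -1.34, and in neither fit of 3 libraries was any gene past the threshold at all (limma BH-adjusted p = 0.732 and 0.551 for Col11a1). Col11a2, the other XI chain listed, was described after its values were seen and lay the other way, at 59.6 and 48.8 in the controls against 108 and 147 in the knockouts (log2 difference 1.21, limma BH-adjusted p = 0.111). Per kilobase, Col11a1 exceeded Col11a2 by 36.2-fold and 49.2-fold in the controls but by 8.30-fold and 7.13-fold in the knockouts.

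Ratios of Col11a1 to a type I chain and to an epithelial marker were lower in both knockouts. The log2 ratio of Col11a1 to Col1a1 was -0.46 and 0.73 in the controls against -2.30 and -1.48 in the knockouts. Against Epcam, a surface protein of epithelial cells, it was -2.14 and -1.84 in the controls against -3.16 and -2.80 in the knockouts. Both ratios left the groups apart.

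The remaining fibrillar chains were low. Col2a1, the main collagen of cartilage, had 27.7 and 95.7 in the controls against 33.8 and 18.5 in the knockouts, and the groups overlapped (log2 difference -1.02, SE 0.62). Col27a1, a chain best known from cartilage, had 326, 502, 255 and 321, with both knockouts just below both controls and none called (log2 difference -0.50, SE 0.24). Col24a1 stood at 8.74 or less in every library. Over the 11 fibrillar genes the median log2 difference was 0.56, with 3 separated upwards (25.5% of all tested genes), 2 downwards (25.6%) and 6 overlapping. That median was 1.01 without control 1 and 0.13 without control 2.

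Type IX is a FACIT collagen made of Col9a1, Col9a2 and Col9a3 that decorates type II and XI fibrils of cartilage. Per kilobase, Col9a1 ranked 4 of the 43 collagens in these glands (754), Col9a2 ranked 5 (631) and Col9a3 ranked 9 (414). Col9a1 (chr1:24177610-24252684, plus strand) had 4346 and 5080 in the controls against 2622 and 3242 in the knockouts. Col9a2 had 2175 and 1987 against 1849 and 1806, and Col9a3 had 1793 and 1763 against 1421 and 1408. All 3 chains had both knockouts below both controls. None was called: the log2 differences were -0.69 (SE 0.13), -0.19 (SE 0.10) and -0.33 (SE 0.10), with limma BH-adjusted p of 0.069, 0.375 and 0.149. Relative to Col9a2, Col9a1 was at a log2 ratio of 1.00 and 1.35 in the controls against 0.50 and 0.84 in the knockouts, so the first chain was lower by more than its partners.

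Types II, IX, X, XI and XXVII, a grouping by occurrence in cartilage that was made after the values were seen, hold 8 genes. Of these 6 were separated downwards, 1 upwards (Col11a2) and 1 overlapped, and the median log2 difference was -0.59. The other 35 collagens had 21 separated upwards (25.5% of all tested genes), 5 downwards (25.6%) and 9 overlapping, with a median of 0.79. Control 2 was the lowest library for 1 of the 8 and for 26 of the 35. The cartilage proteoglycan Acan was at 6.16 and 1.99 in the controls against 2.98 and 23.3 in the knockouts. Comp, another cartilage matrix protein, was at 26.7, 62.8, 76.6 and 43.7 in the same order. Sox9, a transcription factor of cartilage that is also present in mammary epithelium, had 2441, 1726, 2499 and 2682. Acan was at 23.3 or less and Comp at 76.6 or less in every library, while Sox9, Col9a1 and Col11a1 had values above 1000. Which cells made the type IX and XI messages was not tested.

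**Figure D2:**
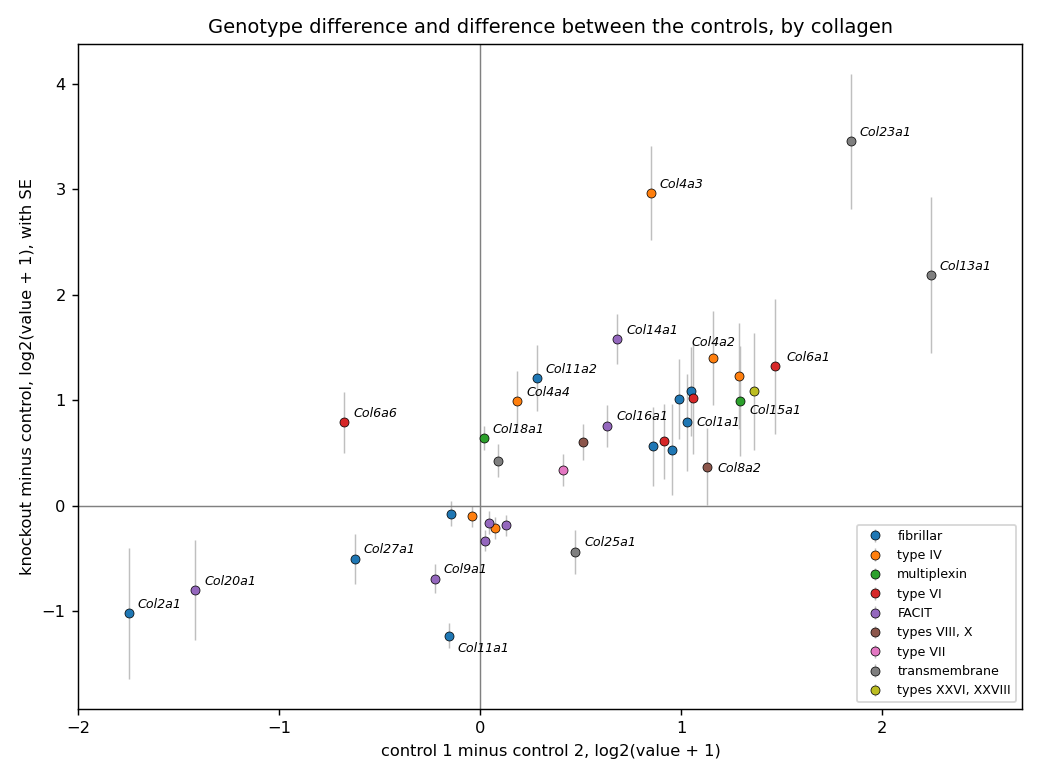
Knockout minus control difference with its SE (vertical axis, log2(value + 1), limma) against the difference between control 1 and control 2 (horizontal axis, same scale) for the collagens with a mean of at least 20, coloured by class. Both axes use the controls. The points at upper right, among them Col1a1, Col4a2, Col6a1 and Col23a1, are collagens with a low value in control 2, while Col11a1, Col9a1, Col18a1 and Col11a2 lie near 0 on the horizontal axis or close to it.

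Type IV chains split by gene pair. The 6 genes lie in 3 head-to-head pairs, each pair read in opposite directions from neighbouring start sites. Col4a1 and Col4a2 are the chains of nearly every basement membrane, Col4a3 and Col4a4 join Col4a5 in kidney, lung and some other membranes, and Col4a5 and Col4a6 form a network known from smooth muscle and some epithelia. Promoter windows of 250 bases before to 50 after the start site, from RefSeq on GRCm38.p6, are shown for the 2 pairs with the highest levels, in each of which the members had like differences. The members of the pair Col4a3 and Col4a4 differed more, by 2.96 and 0.99 on the log2 scale. Capitals mark CCAAT boxes (CCAAT or ATTGG) and GC boxes (GGGCGG or CCGCCC), and each line runs 5′ to 3′ on the strand of its gene.
Col4a1, chr8:11312777-11313076, minus strand: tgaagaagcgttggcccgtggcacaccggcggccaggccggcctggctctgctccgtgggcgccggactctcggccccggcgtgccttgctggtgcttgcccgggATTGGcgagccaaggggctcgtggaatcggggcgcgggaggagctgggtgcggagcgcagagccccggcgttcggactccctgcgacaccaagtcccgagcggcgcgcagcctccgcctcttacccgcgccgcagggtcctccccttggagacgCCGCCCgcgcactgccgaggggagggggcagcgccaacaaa
Col4a2, chr8:11312555-11312854, plus strand: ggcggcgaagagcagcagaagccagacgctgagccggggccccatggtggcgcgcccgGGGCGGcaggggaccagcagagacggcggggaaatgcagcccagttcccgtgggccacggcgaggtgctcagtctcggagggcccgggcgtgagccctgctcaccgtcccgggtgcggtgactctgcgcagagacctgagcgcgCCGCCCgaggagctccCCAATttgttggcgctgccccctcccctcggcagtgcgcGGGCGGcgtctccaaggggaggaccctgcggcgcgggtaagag
Col4a5, chrX:141475169-141475468, plus strand: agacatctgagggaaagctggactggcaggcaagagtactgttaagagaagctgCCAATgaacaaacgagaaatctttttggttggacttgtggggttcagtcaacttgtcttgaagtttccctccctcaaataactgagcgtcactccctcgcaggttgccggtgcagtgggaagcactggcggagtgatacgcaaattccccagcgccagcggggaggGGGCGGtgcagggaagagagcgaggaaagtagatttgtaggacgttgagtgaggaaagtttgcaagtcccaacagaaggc
Col4a6, chrX:141474027-141474326, minus strand: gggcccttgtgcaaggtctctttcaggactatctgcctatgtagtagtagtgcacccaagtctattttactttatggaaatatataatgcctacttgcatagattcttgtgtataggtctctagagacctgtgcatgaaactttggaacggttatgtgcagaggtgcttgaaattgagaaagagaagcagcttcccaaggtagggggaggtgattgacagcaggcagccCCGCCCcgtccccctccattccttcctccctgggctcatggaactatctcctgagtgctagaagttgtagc
The Col4a1 and Col4a2 genes overlap by 22 bases at their starts, so their windows share 78 bases read from opposite strands, among them the GC box whose first base is at +10 of Col4a1 and +8 of Col4a2. The starts of Col4a5 and Col4a6 are 1308 bases apart and those of Col4a3 and Col4a4 71 bases. A CCAAT box was found in the windows of Col4a1, Col4a2 and Col4a5, and a GC box in all 4. On either strand, 37.4% of 32851 RefSeq promoter windows of this length hold a CCAAT box and 35.7% a GC box, and TATAAA or TTTATA, held by 13.6%, was in none of the 4.

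Col4a1 (chr8:11198423-11312826, minus strand) ranked 3 of the collagens per kilobase (821). It had normalised read counts of 5562 and 2273 in the controls against 8199 and 8481 in the knockouts. Col4a2 (chr8:11312805-11449287, plus strand) had 3288 and 1470 in the controls against 5571 and 6032 in the knockouts. Both genes had the knockouts close together and above both controls, and control 2 at less than 50% of control 1. Neither was called, with log2 differences of 1.23 (SE 0.50) and 1.40 (SE 0.45) and limma BH-adjusted p of 0.334 and 0.258. Without control 2 the difference of Col4a2 was 0.82. The log2 ratio of Col4a1 to Col4a2 was 0.76 and 0.63 in the controls against 0.56 and 0.49 in the knockouts.

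The pair on chromosome X was slightly lower rather than higher. Col4a5 had 3608 and 3428 in the controls against 2877 and 3218 in the knockouts, and Col4a6 had 2357, 2426, 2160 and 2313. The knockouts lay slightly below both controls in each, by -0.21 (SE 0.10) and -0.10 (SE 0.10) on the log2 scale, and neither was called (limma BH-adjusted p = 0.333 and 0.642). Control 2 was not set apart from control 1 in either gene. As a log2 ratio, Col4a1 to Col4a5 was 0.62 and -0.59 in the controls against 1.51 and 1.40 in the knockouts. Against Epcam, Col4a5 was at -2.30 and -2.23 in the controls against -2.38 and -2.08 in the knockouts, with the groups overlapping.

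Col4a3 (chr1:82586921-82722059, plus strand), which encodes the chain that carries the Goodpasture antigen, rose. It was at 20.5 and 10.96 in the controls against 97.5 and 158 in the knockouts, a ratio of means of 8.12, and the groups lay far apart. The log2 difference was 2.96 (SE 0.44, limma BH-adjusted p = 0.0367). Without control 2 it was 2.54, with a limma BH-adjusted p of 0.054, and without knockout 1 or knockout 2 it was 3.31 or 2.62, with a limma BH-adjusted p of 0.732 or 0.587, and the call was lost in each of these fits. The call was also lost with a pseudocount of 0.1 (limma BH-adjusted p = 0.081) and with a filter at 10 (limma BH-adjusted p = 0.062). Its neighbour Col4a4, described after its values were seen, had 64.7 and 56.8 in the controls against 133 and 111 in the knockouts, separated upwards and not called (log2 difference 0.99, SE 0.29, limma BH-adjusted p = 0.141). Per kilobase Col4a3 stayed low in every library: its ratio to Col4a1 was 0.003 and 0.004 in the controls against 0.009 and 0.014 in the knockouts.

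Basement membrane lies under several cell types of the gland. The marker sums of the basal, pericyte and adipocyte lists, like Col4a1 and Col4a2, were lowest in control 2. Those of the luminal list (99737 and 100823 in controls 1 and 2, 100853 and 92201 in knockouts 1 and 2) were not. Nor were those of the Schwann cell list (10159, 9888, 9328 and 10215 in the same order). The sum of 10 basal or myoepithelial markers was 19564 and 9657 in the controls against 30633 and 34614 in the knockouts. Of the 10, 8 were separated upwards (25.5% of all tested genes) and 2, Krt14 and Cdh3, downwards (25.6%). The sum of 10 pericyte and smooth muscle markers was 17528, 8402, 26907 and 29267, with 6 separated upwards and 4 overlapping. Acta2, Cnn1 and Myh11 are in both lists, and the sum of the 7 pericyte markers without them was 4609, 3296, 4968 and 4554, where knockout 2 lay below control 1. Adipocytes, which also have a basement membrane and type VI collagen around them, had a sum over 10 markers of 13347, 6024, 29426 and 9335, with all 10 lowest in control 2, 6 separated upwards and 4 overlapping. No marker of the basal, pericyte or adipocyte lists was at 0. The part of these cell types in the type IV and type VI differences was not tested. Relative to the endothelial marker Pecam1, Col4a1 was at a log2 ratio of 3.84 and 3.68 in the controls against 4.02 and 4.69 in the knockouts.

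**Figure D3:**
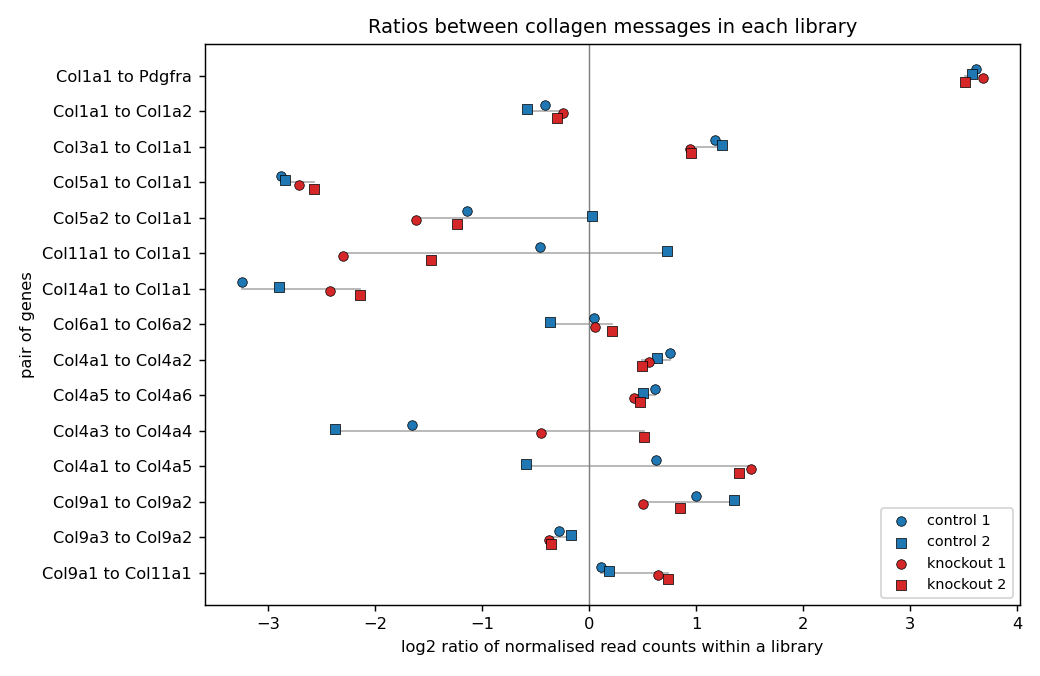
Log2 ratios of pairs of collagen genes within each of the 4 libraries (controls blue, knockouts red, 1 point per library, no error bars). All 5 of Col1a1 to Col1a2, Col4a1 to Col4a2, Col4a1 to Col4a5, Col4a3 to Col4a4 and Col11a1 to Col1a1 leave the groups apart, the first pair of ratios within narrow ranges and the other 3 over wide ones.

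Multiplexins are basement membrane collagens that carry sugar chains. Both were described after their values were seen. Col18a1, whose cleaved end is endostatin, had 685 and 677 in the controls against 1031 and 1093 in the knockouts. The controls nearly coincided, unlike those of Col4a1, and the groups lay apart (log2 difference 0.64, SE 0.11, limma BH-adjusted p = 0.057), just short of a call. Reads of Col18a1 may be shared with Slc19a1, which overlaps it over 8825 bases on the opposite strand and stood at 336, 352, 347 and 297, since the strand setting of the counting is not given. Col15a1 had 561 and 228 in the controls against 874 and 582 in the knockouts (log2 difference 0.99, SE 0.52, not called).

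Type VI, whose chains form beaded filaments between basement membrane and stroma, had positive differences and no call. Col6a1 had 1292 and 466 in the controls against 2470 and 1527 in the knockouts, and Col6a2 had 1258, 603, 2383 and 1314. Both were separated upwards, with log2 differences of 1.32 (SE 0.64) and 1.02 (SE 0.53) and limma BH-adjusted p of 0.397 and 0.415. Col6a3, the long chain that completes the assembly, had 1009, 535, 1314 and 960, and control 1 lay above knockout 2. Col6a6, an alternative long chain, was lowest in control 1 rather than control 2, at 95.5 and 153 against 233 and 190 in the knockouts. Col6a4 and Col6a5 stood at 25.3 or less in every library. All 6 differences were positive, with a median of 0.91 on the log2 scale (0.59 without control 2), 4 separated upwards (25.5% of all tested genes) and 2 overlapping.

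Among the other FACIT collagens, Col14a1, which binds fibrils through decorin and is made by fibroblasts, came close to a call. It was at 583 and 363 in the controls against 1546 and 1224 in the knockouts, a ratio of means of 2.93, and the groups lay apart. The log2 difference was 1.58 (SE 0.24, limma BH-adjusted p = 0.055), and without control 2 it was 1.24. Set against Pdgfra within a library, Col14a1 was at 0.36 and 0.67 in the controls against 1.26 and 1.37 in the knockouts on the log2 scale, so it stayed apart where Col1a1 overlapped. Col12a1, the closest relative of Col14a1, had 1109 and 1074 in the controls against 993 and 960 in the knockouts, a small separation downwards (log2 difference -0.16, SE 0.11, not called). Col16a1, found in fibrils and at basement membranes, had 2341 and 1510 against 3151 and 3208 (log2 difference 0.76, SE 0.20, limma BH-adjusted p = 0.130).

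Col20a1 was low, at 65.8 and 177 in the controls against 72.6 and 52.4 in the knockouts, and the groups overlapped. A listed transcript on the same strand lies within it, so its count is uncertain. Col22a1 was at 1.03 and 6.98 in the controls and listed at 0 in both knockouts. Over the 8 FACIT genes the median log2 difference was -0.26, with 2 separated upwards (25.5% of all tested genes), 5 downwards (25.6%) and 1 overlapping. That median was -0.14 without control 1 and -0.18 without control 2.

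The 4 transmembrane collagens did not share a direction. Col23a1 (chr11:51289920-51583918, plus strand), whose ectodomain can be shed, had 110 and 29.9 in the controls against 603 and 679 in the knockouts. The ratio of means was 9.17, and the knockouts lay close together and far above both controls, which differed from each other more than 3-fold. The log2 difference was 3.45 (SE 0.64), the most positive of the collagens, and was not called (limma BH-adjusted p = 0.106). Without control 2 it was 2.53, and without control 1 it was 4.37. Each of these fits had 1 control library, so the gap between the controls was left out of its spread. Set against Col17a1, the hemidesmosome collagen of basal epithelial cells, Col23a1 was at -1.54 and -3.33 in the controls against 0.55 and 0.68 in the knockouts on the log2 scale.

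Col17a1 itself, described after its values were seen, had 321 and 301 in the controls against 413 and 422 in the knockouts (log2 difference 0.43, SE 0.16, not called). Col13a1, a collagen of neuromuscular junctions and other contacts, was low, at 22.6 and 3.99 against 61.7 and 37.9 (log2 difference 2.19, SE 0.74, limma BH-adjusted p = 0.197). Col25a1, a neuronal collagen, had 395 and 284 in the controls against 237 and 258 in the knockouts, separated downwards and not called.

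Col7a1, the collagen of the fibrils that anchor basement membranes to the stroma, had 1038 and 780.2 in the controls against 1127 and 1153 in the knockouts (log2 difference 0.34, SE 0.15, not called). Col8a1, a network collagen of vessels and eye membranes, had 1231 and 863 against 1484 and 1655 (log2 difference 0.60, SE 0.17, limma BH-adjusted p = 0.136). Col8a2 overlapped, at 197, 89.7, 175 and 170.0. Col10a1, the collagen of hypertrophic cartilage, was at 9.96 or less in every library, and it lies within Nt5dc1 on the opposite strand. Col26a1 and Col28a1 stood at 50.7 or less.

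**Figure D4:**
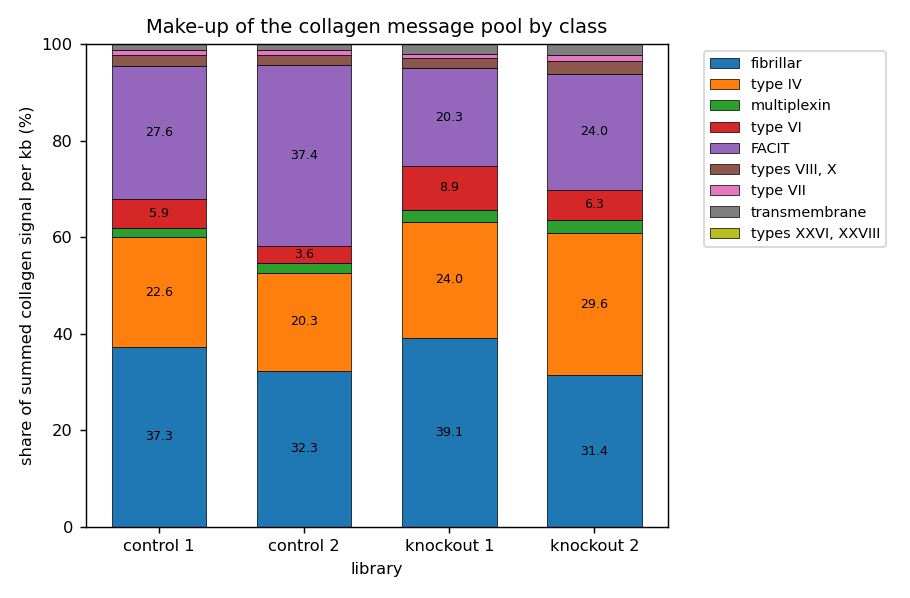
Share of the summed collagen values per kilobase (percent) taken by each class in each of the 4 libraries, as stacked bars from 0 to 100. FACIT collagens take 27.6% and 37.4% in controls 1 and 2 and 20.3% and 24.0% in knockouts 1 and 2, while the fibrillar share overlaps between the groups (37.3% and 32.3%, then 39.1% and 31.4%).

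As shares of all collagen values per kilobase, fibrillar chains took 37.3% and 32.3% in the controls against 39.1% and 31.4% in the knockouts, with the groups overlapping. Type IV took 22.6% and 20.3% in the controls against 24.0% and 29.6% in the knockouts. FACIT chains took 27.6% and 37.4% against 20.3% and 24.0%, and type VI 5.89% and 3.62% against 8.92% and 6.35%. As class sums, type IV and type VI shares were thus higher and FACIT shares lower in both knockouts, but members differed. Among FACIT chains, Col14a1 (0.90% and 0.78%, then 1.99% and 1.81%) and Col16a1 (3.77% and 3.37%, then 4.22% and 4.94%) had higher shares in both knockouts. The other FACIT chains, those of type IX among them, had lower ones. Within type IV, Col4a5 (5.83% and 7.68%, then 3.87% and 4.98%) and Col4a6 had lower shares in both knockouts, and the other chains higher ones. Col9a1 alone took 9.31% and 15.1% in the controls against 4.67% and 6.65% in the knockouts. Shares in 1 library sum to 100, so they do not move independently.

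The genes that make, process, bind and degrade collagen held none past the threshold among 71 tested. An unadjusted limma p under 0.05 was found for 22 of them (31.0%), against 18.0% of all genes. Those of chain synthesis and folding, 23 genes, had a median log2 difference of 0.07. Plod2, a lysyl hydroxylase that prepares cross-links, had 659 and 819 in the controls against 473 and 467 in the knockouts (log2 difference -0.64, SE 0.15, limma BH-adjusted p = 0.091). The prolyl hydroxylases P3h2 and P3h3 were at 0.47 and 1.02 on the same scale. The chaperone Serpinh1, named after its values were seen, had 6717, 7475, 6613 and 5617.

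Fibril assembly proteins and proteoglycans, 13 tested, had a median log2 difference of 1.15, and all 13 were positive and lowest in control 2. Dcn, Dpt, Fn1 and Lum of this list are also among the fibroblast markers, so the lists are not independent. Fmod, a proteoglycan that guides fibril growth, had 1065 and 404 in the controls against 3078 and 3009 in the knockouts (log2 difference 2.21, SE 0.54, limma BH-adjusted p = 0.200). Ogn and Tnxb, also bound to fibrils, were at 1.31 and 1.71.

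Procollagen processing and cross-linking genes, 15 tested, had a median of 0.23. Adamts2, the protease that removes the amino-terminal propeptide, had 524 and 252 in the controls against 978 and 1149 in the knockouts (log2 difference 1.54, SE 0.36, limma BH-adjusted p = 0.140). Pcolce2, an enhancer of carboxy-terminal cleavage, was at 2.03 (SE 0.43, limma BH-adjusted p = 0.080), and Ctsl at -0.51. Lox, the main cross-linking oxidase, named after its values were seen, overlapped at 1487, 685, 1186 and 775.

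Collagen receptors, 10 tested, had a median of 0.52. Ddr2, which binds fibrillar collagen on stromal cells, was at 1.14 and the endocytic receptor Mrc2 at 1.01 (SE 0.23, limma BH-adjusted p = 0.098), while Itga2, an integrin chain of epithelium and platelets, was at -0.69. Degradation genes, 10 tested, had a median of 0.01. Mmp2, a gelatinase made by stroma, had 1716 and 888 in the controls against 3398 and 2964 in the knockouts (log2 difference 1.36, SE 0.34, limma BH-adjusted p = 0.175). Mmp9 was low, at 11.3 and 13.0 in the controls against 41.8 and 15.5 in the knockouts (log2 difference 1.02, SE 0.57, not called). Pepd, which splits proline dipeptides, was at -0.25 on the log2 scale.

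Because miR-9 was the targeted gene, its seed sites were looked up in the collagen messages. A microRNA pairs through its seed, bases 2 to 8, with sites mostly in 3′ untranslated regions, and pairing lowers the message or its translation. The mature miR-9-5p given by RefSeq is the same from Mir9-1 on chromosome 3, Mir9-2 on chromosome 13 and Mir9-3 on chromosome 7, and its seed is in capitals.
mmu-miR-9-5p: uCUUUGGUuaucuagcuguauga
The full 8mer site is ACCAAAGA, and the shorter 7mer sites are ACCAAAG and CCAAAGA. In the longest 3′ untranslated region of each gene in GENCODE M21, 3 of the 43 collagens held an 8mer (6.98%) and 13 held any of these sites (30.2%). Among 21021 protein-coding genes the shares were 4.12% and 20.3%. Among the 5493 with a 3′ untranslated region between the quartiles of the collagens' lengths, 788 to 1763 bases, they were 3.17% and 19.3%. The collagen shares are over all 43, also those with shorter or longer regions, so length was not matched. Among the collagens with a site, Col4a4 had 4708 bases and Col25a1 4185. The 8mers lay in Col9a1, Col27a1 and Col15a1, and they are shown with 10 bases on each side and the site in capitals.
Col9a1, chr1:24252542-24252569, plus strand: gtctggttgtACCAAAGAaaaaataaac
Col27a1, chr4:63333496-63333523, plus strand: ccaagaaccaACCAAAGAgccagtcaaa
Col15a1, chr4:47312411-47312438, plus strand: caaaagagaaACCAAAGAaaacatacct
Of these, Col9a1 and Col27a1 were separated downwards in the knockouts and Col15a1 upwards, with none called. Col11a1 held none of the 3 sites, and Col4a3 held 3 of the 7mers in a region of 3175 bases. Of the 13 collagens with any site, 6 were separated upwards (25.5% of all tested genes), 5 downwards (25.6%) and 2 overlapped, with a median log2 difference of 0.56. Of the 30 without one, 16 were separated upwards, 6 downwards and 8 overlapped, with a median of 0.68.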

How the data were processed

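Messenger RNA libraries of hyperplastic mammary glands, 2 control and 2 knockout, were analysed. Per the labels' protocols, total RNA was extracted with Trizol, made into TruSeq libraries and sequenced on an Illumina NovaSeq. The submitters' processing notes name Bowtie 0.12.2 and the builds hg38, GRCm38 and mm10 without saying what each was used for. How reads were counted, whether by strand, and how values were scaled is not given in the sources used here. As deposited, the values were a scaled signal per gene, judging by the values themselves: 100% of them were whole multiples of 1 step per library, within 1e-06 of the value. No count test was run on them, because the steps of control 2 and knockout 1 are too close to 1 for the multiples to be accepted as recovered reads by the rule applied. Differences are therefore relative to the typical gene, and depth is given as the sum of the values.

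Genes with a value of at least 1 in at least 2 libraries entered a limma fit (version 3.58.1, R 4.3.3) of log2(value + 1) on genotype alone, with trended and robust moderation and 2 residual degrees of freedom, and Benjamini-Hochberg adjustment over 22455 genes at 0.05. Values per kilobase used the gene length in the files, which equalled the union of GENCODE M21 exons for 41 of 43 collagens. Of the 43, 34 had a RefSeq promoter window, and 16 overlap another listed gene, 6 of them one with at least 10% of their mean. Collagens were named where the mean was at least 1000, where the gene was past the threshold, or where it was among the 6 largest rises or falls at a mean of 20 or more. Of the genes that handle collagen, the 3 with the smallest p in each list were named. The members and lists were chosen with earlier results of these data known. The fit was tested on simulated data. In these the libraries of a group shared the same expected value for each gene, so a gap like that between the controls was not covered. The 12 alternatives were 2 other pseudocounts, 2 other filters, 2 other scalings, a replicate block, plain limma and leaving out each library. Leaving out each library for the counts of separated collagens was added after seeing the data.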

Additional observations from a re-analysis of the deposited data

How the results depend on the processing

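Both called collagens kept their direction under all 12 alternatives. Col11a1 lost its call with plain limma and without either knockout, and Col4a3 with plain limma, a pseudocount of 0.1, a filter at 10, and without control 2 or either knockout. Past the threshold were 131 genes and 2 collagens. With a pseudocount of 0.1 these were 33 and 1, with 5 they were 258 and 4, with no filter 332 and 5, and with a filter at 10 they were 66 and 1. Quantile normalisation gave 257 and 4, and scaling to library sums gave 150 and 3. Plain limma gave 0 and 0, with 2983 and 10 at an unadjusted p under 0.05. Leaving out 1 library gave 0 to 2361 genes, 0 to 23 collagens and 0 to 21 collagen-handling genes, against 0 of the last in the full fit. A fit with the replicate block gave 367 genes, 9 collagens (Col11a1, Col14a1, Col1a1, Col23a1, Col4a3, Col5a1, Col6a1, Col6a2 and Col9a1) and 9 collagen-handling genes. The replicate numbers are shared by 2 pairs only, whose deviations correlated at 0.118, so they were not taken to pair the libraries. Median log2 gaps of replicate 1 over 2 were 0.86 in controls and 0.46 in knockouts for fibrillar chains. They were 0.99 and 0.53 for type VI but 0.52 and -0.11 for type IV. With the block, 72.1% of collagens had an unadjusted limma p under 0.05, against 44.2% without it. For all genes these shares were 20.2% and 18.0%. Over the fits that leave out 1 library, the median log2 difference was 0.35 to 1.00 for all collagens, 0.13 to 1.01 for fibrillar chains, 0.70 to 1.48 for type IV, 0.59 to 1.31 for type VI and -0.27 to -0.14 for FACIT. The FACIT median was -0.19 with a filter at 10, -0.19 with quantile normalisation and -0.22 with scaling to library sums. The counts of separated collagens were 23 to 28 above and 11 to 15 below without 1 library. Of all genes, 35.8% to 39.7% were then above and 36.1% to 40.5% below. Adding 1 to the values moved no ratio by more than its spread. With 2 libraries a group, and controls apart in stromal collagen, the differences of Col1a1, Col4a1 and Col6a1 were not resolved. Their ratios of means were 1.66, 2.13 and 2.27 in that order.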
